A study of Mus musculus with 5 samples.

Results

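The cell cycle and DNA replication genes followed here are 46 genes chosen by name: 21 that act at the G1/S transition and in DNA replication, 22 that act in G2 and mitosis (G2/M), and 3 inhibitors of cyclin-dependent kinases (CDKs). Every probe set of the array that is annotated to exactly 1 of these symbols was used. This gave 83 probe sets for 45 genes, out of 22626 probe sets and 12393 named genes in all. The mitotic cyclin gene Ccnb1 was not analysed here. RNA came from fetal mouse colon at E18.5 (embryonic day), with 3 HNF4 null arrays (null_59, null_60 and null_426) of genotype HNF4LoxP/LoxP FoxA3Cre and 2 control arrays (CONTROL_406 and CONTROL_421) of genotype HNF4LoxP/+ FoxA3Cre. The controls were therefore heterozygous for the floxed allele and carried the same Cre transgene, named after the endodermal gene Foxa3, and nothing more on its promoter is given. The labels do not say whether each array held 1 embryo or whether embryos shared a litter, so the p-values measure the spread between these 5 arrays.

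A dividing cell licenses its replication origins in G1 by loading the MCM helicase with the help of Cdc6 and Cdt1, and cyclin E with its kinase then starts S phase. E2F factors, held back by the Rb protein family until G1 ends, drive the genes of this step, whereas the genes of mitosis peak later under the MuvB and Foxm1 programme, which acts through CHR elements and CCAAT boxes in their promoters. CDK inhibitors such as p21, the product of Cdkn1a, oppose these steps. In the intestine, division is confined to progenitors and stops as epithelial cells differentiate, while mesenchymal, neural, endothelial and blood cells of the fetal gut wall divide too.

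No member passed limma's threshold (adjusted p under 0.05 over all probe sets): 0 of 83 member probe sets were called, against 0.124% over the whole array. By the unadjusted p, 4 of the 83 were under 0.05 (7.15% over the whole array), of which 2 were higher in null colons (2.82%) and 2 lower (4.33%). What the members showed was a small lean. Of the 45 genes, each represented by its brightest probe set, 33 had a log2 difference (null minus control) above 0, which is 73.3%, against 53.5% of all genes. The median difference was 0.14 for G1/S genes and 0.14 for G2/M genes, against 0.02 over all 12393 genes, on the log2(intensity + 16) scale used for all differences here. Cdkn1a was the only member with several probe sets that lay lower in all null arrays by each of them.

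On the side of the arrays, median intensities were between 124 and 135, and the tissue markers were bright in every array, from 1259 to 2565 for the epithelial adhesion gene Epcam and from 5074 to 5235 for the smooth muscle actin gene Acta2. Hnf4a, taken as the HNF4 gene of the labels, was measured by 4 probe sets, of which 0 passed the threshold. The brightest read 649.8, 746 and 723 in null_59, null_60 and null_426, and CONTROL_406 read 945 and CONTROL_421 991. By this probe set (-0.35) and another (-0.55) all null arrays lay below both controls, whereas by the other 2 the difference was 0.14 and 0.19 and the groups overlapped. Which Hnf4a exons are floxed is not given. As a measure of RNA quality, the 3' Gapdh control probe set divided by the 5' one was 1.47 in CONTROL_421 against 0.767 to 0.895 in the other 4 arrays. By the actin control probe sets it did not stand apart: that ratio was 1.76 in CONTROL_421, 1.83 in null_60 and 1.44 to 1.55 in the other 3 arrays.

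The promoters of the members carry the sequence elements by which the G1/S and G2/M classes are usually told apart, and 6 are printed here for genes with large, opposite or typical differences. RefSeq windows (build GRCm38.p6) of 300 bases, from 250 bases before a gene's start to 50 after it, were found for 38 of the 46 genes. They were searched on both strands for E2F sites (TTTCCCGC, TTTCGCGC, TTTGCCGC or TTTGGCGC), CCAAT boxes (CCAAT) and CHR elements (TTTGAA or TTCGAA), and 8 of the 99 matches overlapped another match. An E2F site was found in 9 of 18 G1/S genes and 1 of 17 G2/M genes, against 2.60% of 27025 genes with a window. The G1/S genes were Cdc6, Cdt1, Mcm3, Mcm5, Mcm6, Mcm7, Rfc3, Pola1 and Lig1, and the G2/M gene was Cdk1. A CHR element was found in 4 of 18 G1/S and 13 of 17 G2/M genes, against 21.7% of all genes, and a CCAAT box in 11 of 18 and 14 of 17, against 41.1%. The 13 G2/M genes with a CHR element all had a CCAAT box too, a combination found in 9.65% of all genes. No window was at hand for Ccne2, Mcm4, Gins1, Foxm1, Ccna2, Aurkb, Kif20a and Tpx2.

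The 250 bases before the start follow, 5′ to 3′ along the gene, with matches to any of these letters in capitals. Mki67 and Top2a had the largest positive differences by brightest probe set among the members with a window, Cdk1 holds all 3 kinds of element, Cenpa had the most negative difference of a G2/M gene, Mcm6 stands for the replication genes, and Cdkn1a is shown as the inhibitor that lay lower. They lie at chr7:135716380-135716629 on the minus strand (Mki67), chr11:99024190-99024439 on the minus strand (Top2a), chr10:69352913-69353162 on the minus strand (Cdk1), chr5:30666636-30666885 on the plus strand (Cenpa), chr1:128359706-128359955 on the minus strand (Mcm6) and chr17:29093519-29093768 on the plus strand (Cdkn1a).
Mki67: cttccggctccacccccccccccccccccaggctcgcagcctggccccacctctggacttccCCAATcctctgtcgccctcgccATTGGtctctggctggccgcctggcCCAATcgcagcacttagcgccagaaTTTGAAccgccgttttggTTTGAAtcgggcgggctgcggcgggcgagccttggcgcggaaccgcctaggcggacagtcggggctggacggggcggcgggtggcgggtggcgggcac
Top2a: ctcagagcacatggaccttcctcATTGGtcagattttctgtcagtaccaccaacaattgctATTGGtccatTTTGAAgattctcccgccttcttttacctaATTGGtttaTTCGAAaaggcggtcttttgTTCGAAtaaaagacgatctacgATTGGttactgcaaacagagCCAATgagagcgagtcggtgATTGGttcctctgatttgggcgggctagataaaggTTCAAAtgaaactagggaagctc
Cdk1: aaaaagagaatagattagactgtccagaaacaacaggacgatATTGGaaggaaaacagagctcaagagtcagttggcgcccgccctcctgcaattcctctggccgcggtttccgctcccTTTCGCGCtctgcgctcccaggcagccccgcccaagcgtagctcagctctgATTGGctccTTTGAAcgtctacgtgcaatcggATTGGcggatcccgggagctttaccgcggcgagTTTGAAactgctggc
Cenpa: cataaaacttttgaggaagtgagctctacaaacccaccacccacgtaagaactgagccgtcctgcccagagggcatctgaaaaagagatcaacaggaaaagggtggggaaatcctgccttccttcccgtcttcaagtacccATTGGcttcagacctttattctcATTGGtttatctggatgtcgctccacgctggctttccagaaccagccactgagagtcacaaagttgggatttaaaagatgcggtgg
Mcm6: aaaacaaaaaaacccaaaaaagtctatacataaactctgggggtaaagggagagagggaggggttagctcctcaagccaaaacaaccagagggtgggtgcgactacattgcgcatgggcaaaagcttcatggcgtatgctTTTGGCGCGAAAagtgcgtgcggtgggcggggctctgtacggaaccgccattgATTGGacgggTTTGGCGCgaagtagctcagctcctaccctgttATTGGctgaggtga
Cdkn1a: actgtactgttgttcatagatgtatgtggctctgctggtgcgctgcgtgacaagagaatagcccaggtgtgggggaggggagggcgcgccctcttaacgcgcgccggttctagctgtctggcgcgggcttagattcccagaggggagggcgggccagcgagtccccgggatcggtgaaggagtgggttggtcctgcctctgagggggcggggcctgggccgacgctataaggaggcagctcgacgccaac
The Top2a stretch holds 6 CCAAT boxes and 4 CHR elements and that of Mki67 3 and 2, while Cenpa has its CHR element after the start, outside the printed bases, and the 3 E2F matches of Mcm6 include an overlapping pair. The stretch of Cdkn1a, before the downstream one of its 2 annotated starts, holds 0 matches. A match is a description of the letters and not evidence of binding. Over the members, the median log2 difference was 0.23 for the 10 measured genes with an E2F site and 0.12 for the 27 without. It was 0.14 for the 17 with a CHR element and 0.15 for the 20 without. With CONTROL_421 left out, all 10 genes with an E2F site lay below 0.23, from -0.02 (Cdt1) to 0.19 (Cdk1). Their median of 0.23 therefore depended on that array. With CONTROL_421 left out, the genes with a site no longer had the higher median. The 27 without a site then ranged from -0.38 (Cdkn1a) to 0.40 (Mki67).

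By brightest probe set the largest positive differences were in G2/M members, all short of the threshold. Mki67 encodes the Ki-67 protein of proliferating cells, which coats mitotic chromosomes. It read 402, 664 and 377 in null_59, null_60 and null_426, while CONTROL_406 read 360.2 and CONTROL_421 read 310.2. The null arrays were all above the control arrays, with null_60 far above the other 2, and the log2 difference was 0.48 ± 0.22 (SE, adjusted p = 0.715). Top2a encodes topoisomerase II alpha, which untangles sister chromatids. Its brightest probe set read 641, 766 and 582 in null and 588 and 445 in control arrays, giving 0.39 ± 0.18 (SE, adjusted p = 0.712). Here the lowest null array lay just below CONTROL_406 by deposited intensity, though not after normalisation. The dim second probe set of Top2a, at 49.8, 32.9 and 60.2 against 57.2 and 53.7, differed by -0.28 ± 0.20 (SE, adjusted p = 0.792), so the 2 probe sets did not give the same direction.

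Foxm1, the forkhead factor that activates mitotic genes, read 581, 492 and 743 in null and 393 and 478 in control arrays by its brightest probe set, giving 0.51 ± 0.23 (SE, adjusted p = 0.702). By deposited intensity all null arrays were above both controls, by a small margin for null_60, which after normalisation was level with CONTROL_421. Its other 3 probe sets differed by 0.21, 0.20 and 0.07, all in the same direction. The last was near the floor, at 11.8, 3.23 and 9.21 in null and 12.0 and 0.868 in control arrays. Without CONTROL_421 it stood at -0.20. Cdk1, the kinase of mitotic entry, read 703, 734 and 631 against 626 and 555, giving 0.27 ± 0.16 (SE, adjusted p = 0.767), again with no overlap between the groups. Its cyclin partners showed smaller values of the opposite sign, -0.05 ± 0.18 for Ccna2 (SE, adjusted p = 0.960) and -0.06 ± 0.17 for Ccnb2 (SE, adjusted p = 0.947). Among the mitotic kinases, Aurka, which acts at spindle poles, read 185, 218 and 178 against 157 and 143 (0.30 ± 0.17), with no overlap. Aurkb, the kinase of the chromosomal passenger complex, differed by -0.08, its partner Birc5 (survivin) by -0.15 and the polo-like kinase gene Plk1 by 0.12, and in these 3 genes the groups overlapped.

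Cenpa went the other way. It encodes the histone H3 variant that marks centromeres, and it read 160.3, 239 and 178 in null and 243 and 247 in control colons. All null arrays lay below both controls, null_60 only just, and the log2 difference was -0.36 ± 0.19 (SE, adjusted p = 0.748). The spindle checkpoint genes were nearer to 0 or slightly above it: Bub1 differed by 0.15, Bub1b by 0.22 and Mad2l1 by 0.09. The genes of the anaphase-promoting machinery that this checkpoint restrains, Cdc20 and Ube2c, differed by 0.01 and 0.14. Other probe sets of Cdc20 differed by 0.31, higher in all null arrays, and by 0.08, with overlap. Of the spindle motor and microtubule genes, Kif23, a kinesin of the midzone and cytokinesis, read 174, 183 and 157 against 136 and 135, giving 0.27 ± 0.16 (SE, adjusted p = 0.771) without overlap. Kif11 and Kif20a, other mitotic kinesins, differed by 0.09 each. Their groups were without overlap by deposited intensity but overlapped after normalisation. Those of the spindle assembly genes Tpx2 (0.26) and Nusap1 (0.19) overlapped by both. Without CONTROL_421 the value of Nusap1 was 0.01. Its dim second probe set differed by -0.13, lower in all null arrays after normalisation but overlapping by deposited intensity. Tpx2 read 292, 287.7 and 236 in null and 254 and 194 in control arrays. In all, 16 of 21 G2/M genes had a difference above 0.

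**Figure D1:**
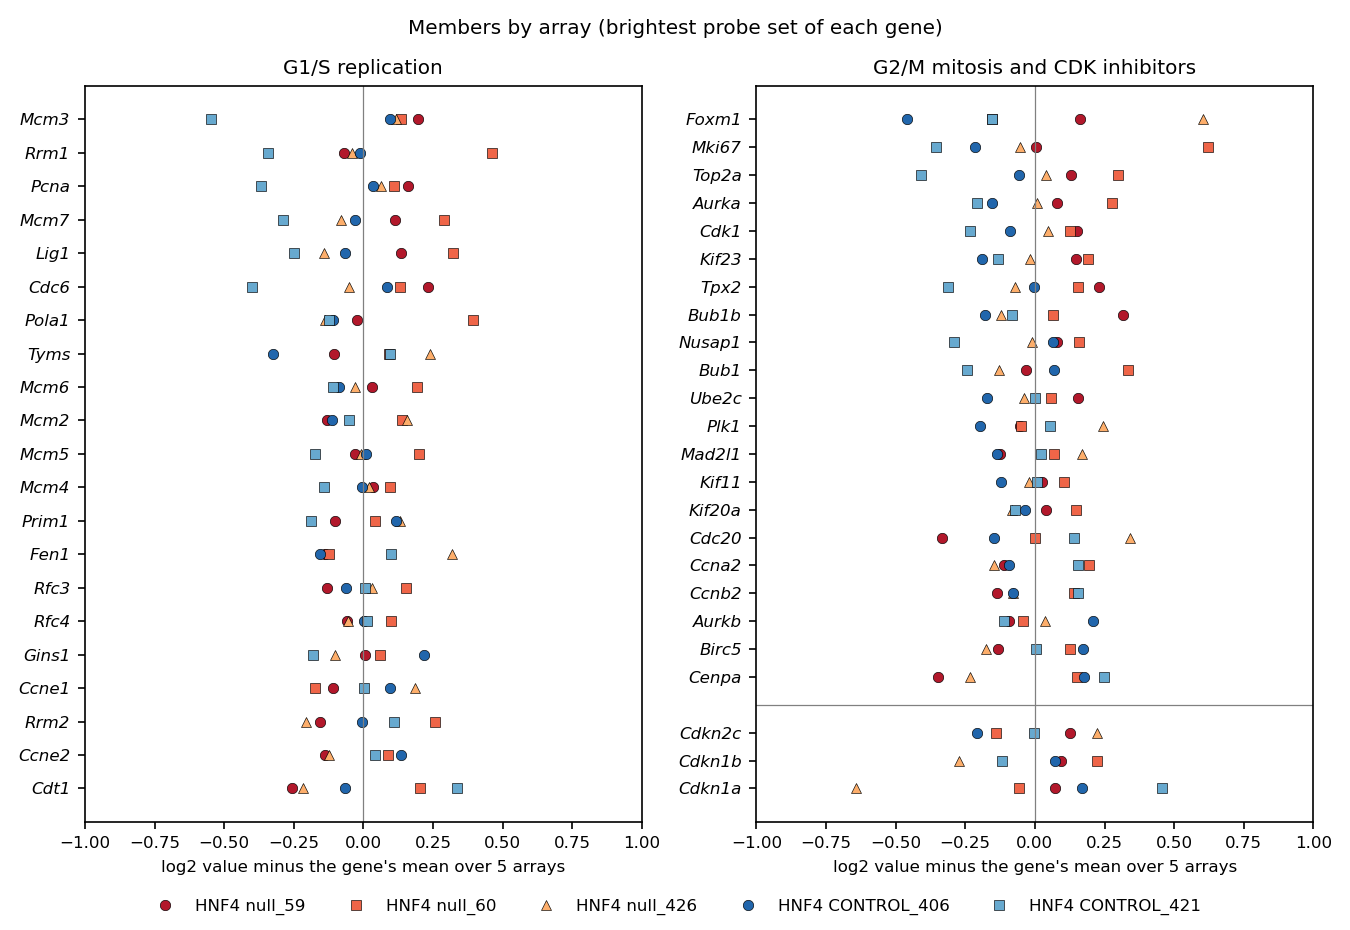
Each row is a member gene and each symbol 1 array, placed at the log2 value of the gene's brightest probe set minus its mean over the 5 arrays (x axis, log2 units); warm colours are HNF4 null and blue colours control arrays. CONTROL_421 is the leftmost symbol in 11 of 21 G1/S genes, and null_60 lies at the right in many rows of both panels.

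The G1/S members leaned the same way, 15 of 21 above 0. Of the licensing genes, the subunits of the MCM helicase were each above 0 by their brightest probe sets, at 0.14 for Mcm2, 0.38 for Mcm3, 0.12 for Mcm4, 0.14 for Mcm5, 0.16 for Mcm6 and 0.27 for Mcm7. Other probe sets of Mcm4 (-0.22), Mcm6 (-0.27) and Mcm7 (-0.12) lay below 0. The values for Mcm2 were 390.5, 501 and 465 in null and 414 and 419 in control arrays, so the groups overlapped (SE 0.17, adjusted p = 0.872). Those for Mcm3 were 310.5, 310.3 and 292 against 301 and 177, giving 0.38 ± 0.21 (SE, adjusted p = 0.757). In Mcm3 it was CONTROL_421 alone that lay low, and without it the difference was 0.05. Of the MCM loaders, Cdc6 was dim, at 59.8, 55.1 and 51.2 against 52.96 and 28.9 (0.26 ± 0.20, SE), while Cdt1 read 217, 317 and 225 against 257 and 333 (-0.22 ± 0.21, SE). Without CONTROL_421 both were near 0, at 0.02 for Cdc6 and -0.02 for Cdt1. The cyclin E genes stood at -0.08 (Ccne1) and -0.14 (Ccne2) and Gins1, a subunit of the helicase activator GINS, at -0.03.

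Of the fork genes, Pcna, the sliding clamp of the DNA polymerases and a usual marker of S phase, read 1087, 1132 and 939.5 in null and 1077 and 772 in control arrays. The groups overlapped and CONTROL_421 was lowest, and the difference was 0.28 ± 0.18 (SE, adjusted p = 0.780), or 0.08 without CONTROL_421. Lig1, the ligase that joins Okazaki fragments, read 279.7, 335 and 231 against 249 and 208 (0.26 ± 0.19, SE, adjusted p = 0.792), and the flap nuclease gene Fen1 differed by 0.05. Pola1 and Prim1, the catalytic polymerase and primase subunits of primer synthesis, differed by 0.20 and 0.06, and the clamp loader genes Rfc3 and Rfc4 by 0.05 and -0.01. The readings of Pola1, 76.2, 107.9 and 75.4 against 71.2 and 64.7, made it the only G1/S gene whose deposited intensities did not overlap between the groups. For nucleotide supply, the ribonucleotide reductase subunits Rrm1 and Rrm2 stood at 0.29 and -0.09, and thymidylate synthase, Tyms, at 0.19.

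**Figure D2:**
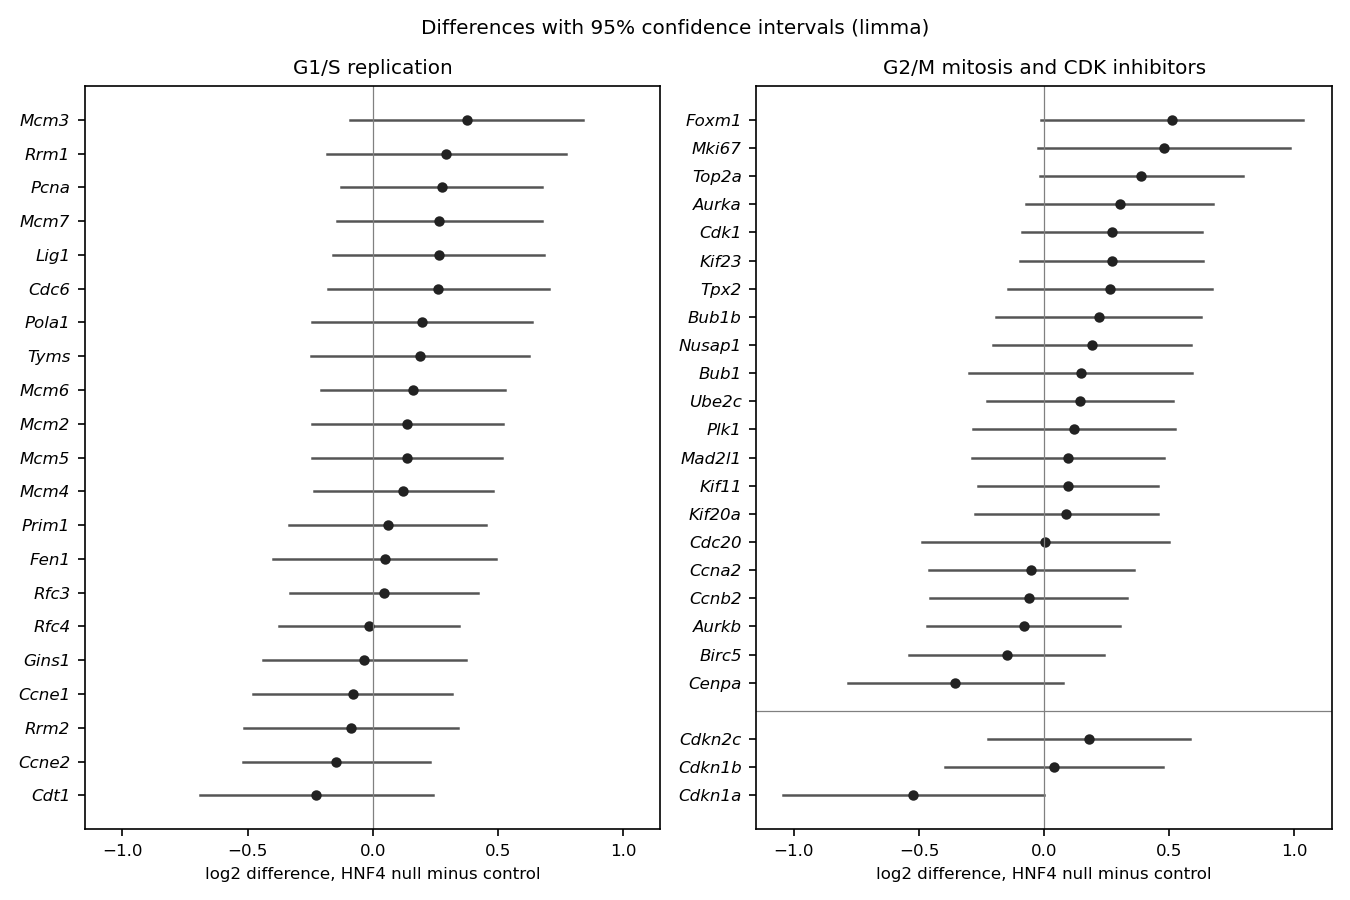
Points are log2 differences (HNF4 null minus control, x axis) of each member by its brightest probe set, with 95% confidence intervals from limma as bars. All intervals of G1/S and G2/M genes include 0, and the interval of Cdkn1a, from -1.04, ends close to 0.

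By deposited intensity, all 3 null arrays lay above both controls in 8 of 45 member genes (7 of them G2/M genes and 1 a G1/S gene), against 14.8% of all genes, and below both in 2 (Cenpa and Cdkn1a), against 10.3%. After quantile normalisation the counts were 9 higher, against 12.6% of all genes, and 2 lower, against 11.8%. Of the 9, 4 were then G1/S genes (Mcm3, Mcm4, Mcm6 and Pcna), so which genes were apart depended on the scaling. The share of member genes with no overlap upward, 17.8% by deposited intensity, compares with 14.8% of all genes.

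Of the 3 inhibitors, Cdkn1a lay lower in HNF4 null colons, short of the threshold. Its product p21 binds cyclin-CDK complexes and PCNA and accompanies cell cycle exit, and the gene is a direct target of p53. The brighter probe set read 317, 302 and 192 in null_59, null_60 and null_426, while CONTROL_406 read 357 and CONTROL_421 read 425, giving -0.52 ± 0.23 (SE, 95% interval -1.04 to -0.0020, adjusted p = 0.699). The dimmer one read 108.8, 101.8 and 95.5 against 163 and 126, giving -0.49 ± 0.17 (SE, adjusted p = 0.620). By both probe sets every null array lay below both control arrays, and both differences kept their sign in every alternative run on them. They are 2 of the 4 member probe sets with the smallest p. The other inhibitors lay nearer to 0. Cdkn1b (p27) read 195.5, 221 and 153 against 196 and 162, giving 0.04 ± 0.19 (SE, adjusted p = 0.972). Cdkn2c (p18), an inhibitor of the cyclin D kinases, read 488, 431 and 508 against 405 and 456, giving 0.18 ± 0.18 (SE, adjusted p = 0.842). In both genes the groups overlapped.

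Other genes of the pathway were read from a list of 116, of which 103 were measured. None passed limma's threshold (0 of 103), and 5 had an unadjusted p under 0.05 (6.83% of all genes), of which 2 were higher (2.6%) and 3 lower (4.24%). Above 0 were 22 of 30 genes of origins and forks, 22 of 29 of the kinetochore, spindle and chromosome structure, 9 of 13 of mitotic entry and exit, 11 of 19 of the cyclin D, E2F and Rb group and 2 of 4 of nucleotide supply, with the median difference over the 103 genes at 0.09. Among the inhibitors and p53 genes, only 2 of 8 were above 0 and the median was -0.18. Their median deviation from their 5-array means was 0.26 in CONTROL_421 but 0.0043 in CONTROL_406. In null_59, null_60 and null_426 it was -0.11, -0.03 and -0.07. The highest of the named ones by brightest probe set was Uhrf1, which couples DNA methylation to replication: it read 171, 238 and 182 against 161 and 103.2 (0.50 ± 0.21, SE, adjusted p = 0.688), and its second probe set was higher in all null arrays as well (0.52). The first value of Uhrf1 was 0.26 without CONTROL_421. Ttk, the Mps1 kinase of the spindle checkpoint, stood at 0.38, or 0.23 without CONTROL_421, and the G1 cyclin gene Ccnd2 at 0.35, or 0.31.

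On the lower side stood E2f5, a member of the repressive E2Fs, at 257, 238 and 175 in the null and 318 and 355 in the control arrays (-0.57 ± 0.20, SE, adjusted p = 0.624). Its second probe set, at 145.5, 129.6 and 110.1 against 251 and 256, gave a larger difference of -0.93 ± 0.18 (SE, adjusted p = 0.172). By both probe sets the groups did not overlap, and the first value was -0.46 without CONTROL_421. Cdkn2b, which encodes the inhibitor p15, read 192, 328 and 199 against 298 and 459, with null_60 above CONTROL_406, giving -0.63 ± 0.26 (SE, adjusted p = 0.690), or -0.31 without CONTROL_421. The p53 target Ccng1 read 184, 206 and 151 against 238 and 243 by its brightest probe set (-0.41 ± 0.18, SE, adjusted p = 0.696), while its other 2 probe sets differed by -0.18 and -0.01. The other 6 genes of the inhibitor and p53 list, named here to complete it, were Gadd45a (-0.49), Cdkn1c (-0.23), Cdkn2a (-0.12), Cdkn2d (-0.08), Mdm2 (0.03) and Btg2 (0.25). Gadd45a was dim, at 33.1, 27.6 and 13.6 in null and 34.2 and 39.2 in control arrays. Btg2, a p53 target, read 261, 265 and 254 in null and 235 and 198 in control arrays.

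**Figure D3:**
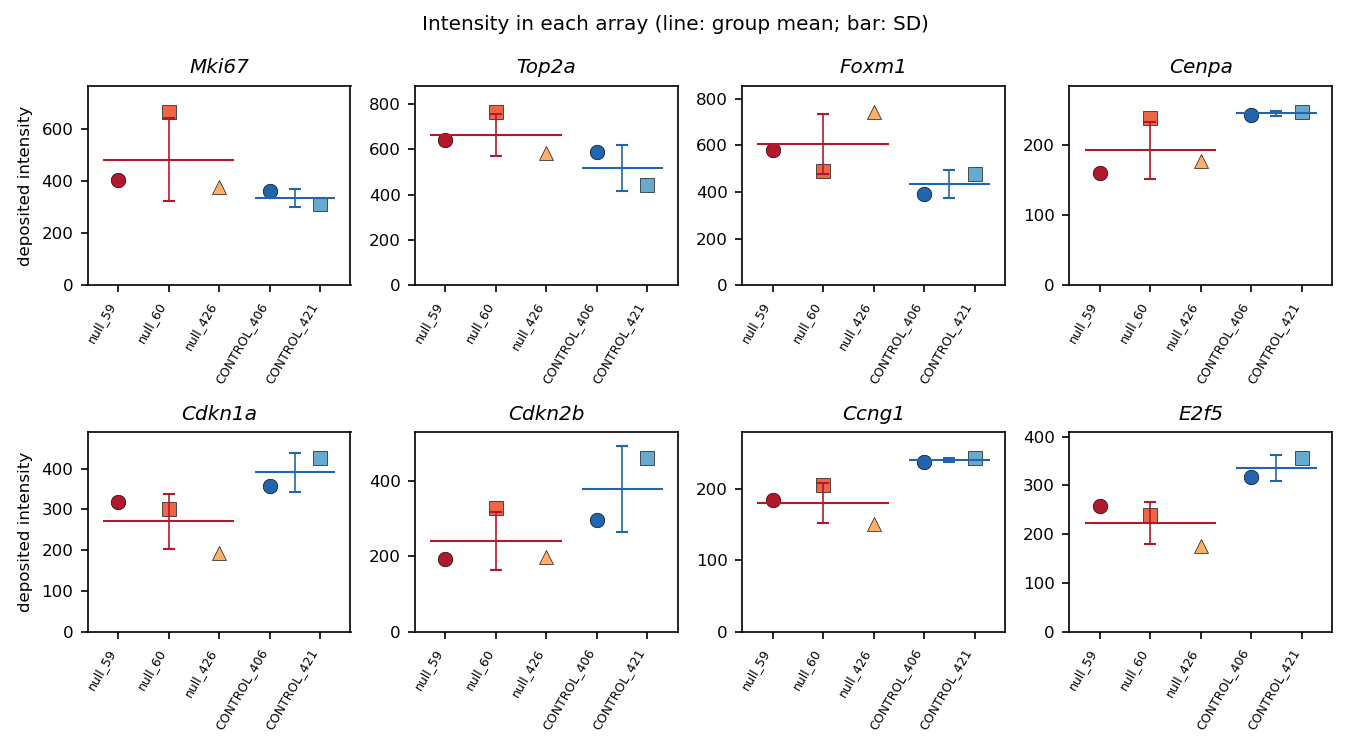
Deposited intensities (y axis, linear, from 0) in each of the 5 arrays for 4 members with the larger differences of the G2/M class, for Cdkn1a and for 3 genes of the wider list, each by its brightest probe set; lines are group means and bars the SD (n = 3 null, n = 2 control). The SD bars of null and control colons overlap in Mki67, Top2a, Foxm1 and Cdkn2b, and all null points lie below both control points in Cenpa, Cdkn1a, Ccng1 and E2f5.

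By normalised value, 2 arrays stood out over the members, 1 in each group. CONTROL_421 was the lowest array in 19 of 45 member genes, against 20.9% of all genes, and null_60 was the highest in 20, against 17.8%. The median deviation of the G1/S genes from their 5-array means was 0.14 in null_60 and -0.13 in CONTROL_421, and -0.06, -0.03 and -0.01 in null_59, null_426 and CONTROL_406. Gene by gene, null_59 lay above CONTROL_406 in 10 of the 21 G1/S genes, null_426 in 10 and null_60 in 17. In the G2/M genes both control arrays lay at the low end, at -0.09 in CONTROL_406 and -0.08 in CONTROL_421, against 0.03, 0.14 and -0.02 in null_59, null_60 and null_426. Without CONTROL_421 the median difference of the G1/S genes was 0.05, with 14 of 21 above 0, and that of the G2/M genes was 0.16, with 17 of 21 above 0. Over all 45 members 32 were then above 0, against 53.6% of all genes. Without null_60 the medians were 0.10 and 0.14. Of the single genes, the difference without CONTROL_421 was 0.40 for Mki67, 0.21 for Top2a, 0.66 for Foxm1, 0.19 for Cdk1, 0.27 for Aurka, 0.29 for Kif23, 0.11 for Tpx2, -0.32 for Cenpa and -0.38 for the brighter probe set of Cdkn1a. It was 0.14 for Mcm7, 0.17 for Lig1, 0.13 for Rrm1 and 0.19 for Pola1. Without null_60 it was 0.26 for Mki67, 0.12 for Rrm1 and 0.04 for Pola1, and without null_426 it was 0.31 for Foxm1 and -0.31 for the brighter probe set of Cdkn1a.

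**Figure D4:**
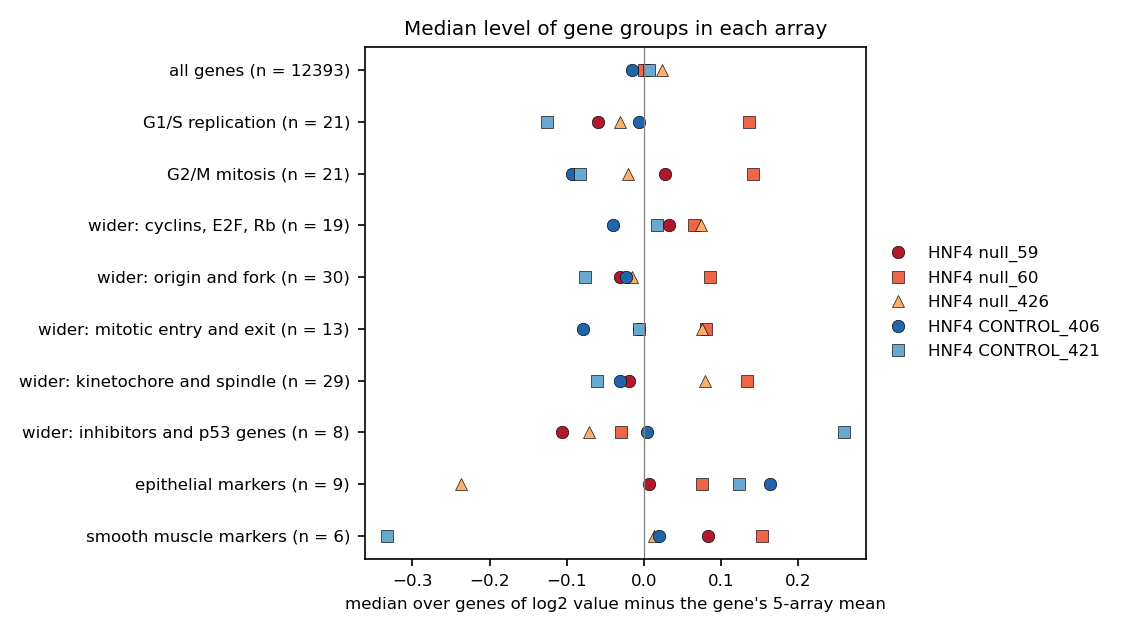
Symbols give, for each array, the median over the genes of a group of the log2 value minus the gene's 5-array mean (x axis); n is the number of genes. The all-gene medians lie near 0, null_60 lies highest and CONTROL_421 lowest in the G1/S row, and CONTROL_421 lies highest, at 0.26, in the row of inhibitors and p53 genes.

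The probe sets of 1 gene often differed from each other in CONTROL_421. Rrm1 by its other probe set read 265, 208 and 231 in null, 233 in CONTROL_406 and 62.2 in CONTROL_421, whereas by its representative one it read 219, 338, 225, 235 and 175 in the same order. Mcm7 by its second brightest probe set read 313, 364, 297 and 335 in the other arrays and 110.1 in CONTROL_421, while its brightest probe set read 717, 867, 604, 686 and 559.6. Rrm2 (85.5 against 156 to 208) and Fen1 (51.0 against 88.3 to 134) each had such a second probe set, although their brightest probe sets were not lowest in this array. CONTROL_421 was the lowest array in 37 of 83 member probe sets, against 22.7% of all. It is also the array with the high Gapdh 3' to 5' ratio, and the part of RNA quality in these readings was not tested.

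Against CONTROL_421 alone, without CONTROL_406, 2 member probe sets passed limma's threshold, these probe sets of Rrm1 (1.57, adjusted p = 0.0317) and Mcm7 (1.35, adjusted p = 0.0406), against 0.46% over the whole array, and 13 had an unadjusted p under 0.05, against 10.1%. Against CONTROL_406 alone 0 passed, against 0.0796% over the whole array, and 1 had an unadjusted p under 0.05, against 5.29%. That 1 was the dimmer probe set of Cdkn1a. The member probe set with the smallest p over all 5 arrays, of Mcm3 and not its brightest, read 193, 190.3 and 170.2 against 137 and 72.6 (0.73 ± 0.22, SE, adjusted p = 0.539). It was 0.38 without CONTROL_421. The fourth at an unadjusted p under 0.05 was a dim probe set of Tyms, at 21.5, 33.8 and 32.1 against 17.8 and 14.2 (0.41 ± 0.17, SE, adjusted p = 0.692). Of the 25 member genes with several probe sets, 12 had all of them above 0, 3 all below (Ccna2, Aurkb and Cdkn1a) and 10 had both signs.

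**Figure D5:**
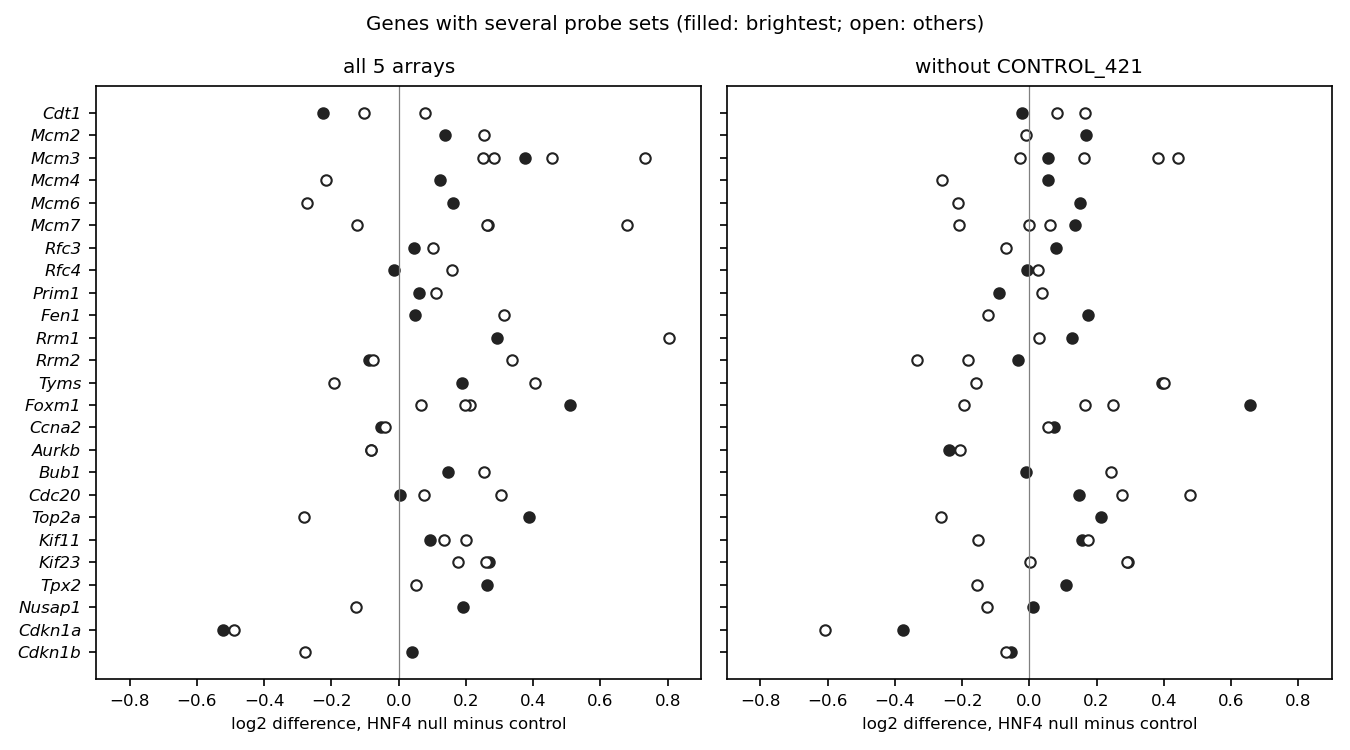
Each row is a member gene with several probe sets and each circle 1 probe set, at its log2 difference (HNF4 null minus control, x axis), filled for the brightest; the left panel uses all 5 arrays and the right panel leaves out CONTROL_421. The far points of Rrm1 (0.80) and Mcm7 (0.68) in the left panel move to near 0 in the right one, while both points of Cdkn1a stay below 0.

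Because whole colon was assayed, fewer cells of a type and less RNA per cell cannot be told apart, and the cell layers that hold the dividing cells are not separated. No epithelial marker passed the threshold (Epcam had an adjusted p of 0.387 and Vil1 of 0.493, by limma). By deposited intensity 4 of 9 lay lower in all null arrays, against 10.3% of all genes, and 0 higher, while 4 of 9 had a log2 difference above 0 and Krt18 (0.29) was apart upward after normalisation. Their summed intensity was 12538 to 16469 in null and 16278 to 17164 in control colons. Smooth muscle markers had a sum of 14677 to 16167 in null and 12208 to 15091 in control colons, lowest in CONTROL_421, with 1 of 6 higher in all null arrays. Sums for the other types in null and control colons were 7594 to 10139 and 8953 to 10337 for 6 fibroblast markers, 725 to 916 and 672 to 679 for 4 endothelial markers, 694 to 1077 and 679 to 711 for 5 erythroid markers and 824 to 979 and 1006 to 1084 for 5 leukocyte markers. Among the leukocyte markers Ctss alone differed widely (-0.94), at 157, 166 and 93.3 in null and 287 and 252 in control arrays. The others lay between -0.09 (Ptprc) and 0.11 (Cd68). The 5 intestinal progenitor markers summed to 1323 to 1361 in null and 1165 to 1215 in control colons. They did not move together: 4 had a log2 difference above 0, from 0.06 (Axin2) to 0.38 (Prom1). The other, Lgr5 (-0.28), lay lower in all null arrays after normalisation. Sums in null and then control colons were 373 to 454 and 242 to 368 for 3 mesothelial markers, 904 to 1215 and 855 to 991 for 5 enteric neuron and glia markers, 568 to 747 and 637 to 803 for 4 liver markers and 543 to 779 and 635 to 666 for 2 pancreas markers. No marker was at 0 in all arrays. The part of cell composition in the values of the cell cycle genes was not tested.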

How the data were processed

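The authors deposited a linear intensity for each probe set, from biotin-labelled total RNA on an Affymetrix array, per the labels' protocols; probe summary, background step and scaling are not given in the sources used here. Values below 0 (196 of the tested ones) were set to 0, log2(intensity + 16) was taken and the arrays were quantile normalised. The 64 control probe sets were left out. The platform annotation paired 20380 of the 22626 tested probe sets with 1 symbol, 691 with several and left 1555 unnamed here. By gene ID 20351 matched RefSeq GRCm38.p6, changing 0 symbols. HNF4 null was compared with control by limma 3.58.1 in R 4.3.3 (lmFit, eBayes, two-sided, Benjamini-Hochberg over all probe sets, no filter). A gene is represented by the probe set with the highest mean log2 value. Per-array values were given for the 8 members of each class with the smallest p, the inhibitors, some standard proliferation markers and each member probe set at an unadjusted p under 0.05, and from the wider list for the 6 genes with the smallest p; E2f5, Uhrf1 and Ccng1 probe sets beyond the brightest, and the probe sets low in CONTROL_421, were chosen after their values were seen. The members and lists were chosen with earlier results of these data known. Alternatives were pseudocounts of 1 and 64, no or median scaling, array weights, a variance trend, dropping dim probe sets, averaging the probe sets of each gene and leaving out each array. The scripts were tested on simulated data. The number of arrays limits the precision, and a fold on this scale understates the change of dim genes.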

Additional observations from a re-analysis of the deposited data

How the results depend on the processing

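The count of probe sets past the threshold over the whole array was 28. Array weights gave 45, a pseudocount of 1 gave 14 and leaving out dim probe sets gave 17. The count went from 8 (without null_60) to 104 (without CONTROL_406) with 1 array left out, and was 18 without CONTROL_421. With 1 control array left, its spread is taken from the null arrays. The medians of the G1/S genes ranged from 0.05 to 0.18 and those of the G2/M genes from 0.09 to 0.19 over all alternatives, and the numbers above 0 from 11 to 16 and from 14 to 17. With array weights, which put most weight on null_59, 28 of 45 members were above 0. Of the 83 member probe sets, 51 kept their sign in every alternative that tested them and 32 did not. Among the 45 brightest ones 14 changed sign in at least 1 alternative, each with a main difference of at most 0.19 in size: Gins1, Rfc3, Rfc4, Prim1, Fen1, Tyms, Ccna2, Ccnb2, Plk1, Aurkb, Bub1, Mad2l1, Cdc20 and Cdkn1b. Of the others 18 did, among them the second probe set of Mcm7, at -0.00046 without CONTROL_421. Past the threshold in any alternative were 2, those of Rrm1 and Mcm7 without CONTROL_406. Cdkn1b was at -0.00085 without null_59, -0.064 without null_60 and -0.055 without CONTROL_421 (the cause was not tested). With another scaling the median of all probe sets was at most 0.05. Without dim probe sets 54 of 83 member probe sets were left. No paired analysis was run, because the labels do not say which null and control arrays, if any, belong together.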
